A study of Mus musculus with 6 samples.

Results

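To describe how retinoic acid (RA) bears on interleukin-1 signaling in bone marrow mesenchymal stromal cells (BMSCs), 10 genes were read from the count tables by their symbols: the ligands Il1a, Il1b and Il18, the inhibitors Il1rn and Il1r2, the receptor chains Il1r1, Il1rap and Il1rl1, and the inflammasome genes Casp1 and Nlrp3. All 10 were found among the 25722 genes listed. RNA was sequenced from wild-type C57BL/6 marrow cells grown in 5% oxygen with serum and a ROCK inhibitor. DMSO, the solvent, was given to 3 libraries (controls) and all-trans RA (ATRA) to 3 (RA-treated), and the sample labels give 1 μM for 48 h, while the methods of the study state a lower dose and a shorter time. The labels also speak of 2 biological replicates. The legend of the study's figure with the sequencing panels speaks of 3 independent experiments, without saying whether this covers the sequencing. Nothing else ties the 3 libraries of a group to separate cultures or animals. The p-values thus measure the spread between these libraries, which may be technical.

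Interleukin-1 alpha and beta bind the receptor IL-1R1, which then pairs with the accessory protein IL-1RAP and signals through MyD88 and IRAK kinases to NF-κB. The pathway has 2 natural brakes among the genes read here: the receptor antagonist encoded by Il1rn occupies IL-1R1 without signaling, and IL-1R2 is a decoy receptor. Interleukin-1 beta and interleukin-18 are made as precursors that caspase-1 cuts after NLRP3 has assembled an inflammasome, a step that RNA does not show. In marrow cultures macrophages are known as the main source of the ligands, and stromal cells carry IL-1R1 and answer with cytokines and chemokines.

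The libraries held between 14737636 and 18511905 counts, and levels are given in CPM, counts scaled by library size and TMM factor. Before the TMM factor, 3 counts stood at 0.162 to 0.204 CPM. Cyp26b1, an RA-degrading enzyme and a known RA target, stood at 4.97, 5.96 and 4.68 CPM in controls 1 to 3 and at 123.7, 109.6 and 87.1 CPM after RA, higher in all 3 RA-treated libraries (edgeR adjusted p = 0.00207). The libraries parted along the leading component of expression into library set 1, with control 2 and the RA-treated libraries 1 and 2, and library set 2, with the remaining 3, a split for which no batch or date is given. Pooled values of the members are accompanied by those within a set, where 1 of the groups is always a single library without a spread. Markers of macrophages were abundant: the 14 genes of that list summed to between 21492 and 23670 CPM in controls and between 20888 and 22277 CPM after RA. The 12 stromal markers summed to between 2289 and 4385 CPM in controls and between 1669 and 3422 CPM after RA, so that libraries labelled as stromal cells held abundant macrophage RNA. Of the surface markers that define cultured stromal cells, Thy1 and Nt5e were at or below 1.12 CPM in every library, whereas Eng stood at 33.1 to 59.8 CPM, and the stromal genes Pdgfrb and Cxcl12 at 60.3 to 139.9 and 368.1 to 577.9 CPM. In such bulk RNA, fewer cells of a type and less RNA per cell cannot be told apart.

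The promoters of Il1rn, Il1r1 and Il18 are shown because these genes had the 3 largest differences of the tested members within library set 1. Each window holds the 250 bases before a RefSeq transcription start of GRCm38.p6, on the plus strand and written 5′ to 3′, with Il1r1 shown at the one of its 2 listed starts whose window held a match and Il1rn at 2 of 3, since that gene is known to make secreted and intracellular forms from separate starts. Capitals mark matches, on either strand, to the κB motif (NF-κB), to the AP-1 motif TGANTCA or to AGGTCA, the element that nuclear receptors of the RA receptor family bind.
Il1rn, upstream start (chr2:24336610-24336859): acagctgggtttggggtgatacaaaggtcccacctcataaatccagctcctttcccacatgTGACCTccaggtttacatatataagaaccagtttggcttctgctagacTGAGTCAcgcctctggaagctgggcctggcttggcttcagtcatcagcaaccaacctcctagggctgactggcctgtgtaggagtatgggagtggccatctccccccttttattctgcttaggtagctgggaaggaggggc
Il1rn, downstream start (chr2:24345041-24345290): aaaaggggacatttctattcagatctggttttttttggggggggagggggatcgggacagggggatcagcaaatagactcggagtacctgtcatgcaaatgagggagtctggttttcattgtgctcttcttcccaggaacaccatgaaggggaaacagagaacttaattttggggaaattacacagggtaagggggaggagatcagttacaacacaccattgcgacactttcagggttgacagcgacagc
Il1r1 (chr1:40266336-40266585): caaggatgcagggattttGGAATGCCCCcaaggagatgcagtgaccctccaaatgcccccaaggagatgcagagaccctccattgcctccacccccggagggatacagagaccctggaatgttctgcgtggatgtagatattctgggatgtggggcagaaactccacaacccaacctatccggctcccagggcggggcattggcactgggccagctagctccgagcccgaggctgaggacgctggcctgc
Il18 (chr9:50554450-50554699): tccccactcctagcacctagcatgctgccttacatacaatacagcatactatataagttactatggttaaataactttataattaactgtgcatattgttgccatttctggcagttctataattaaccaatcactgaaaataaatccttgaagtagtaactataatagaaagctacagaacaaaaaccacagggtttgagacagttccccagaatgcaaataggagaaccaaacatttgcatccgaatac

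The upstream start of Il1rn had an AGGTCA match from 189 to 184 bases before the start, on the opposite strand, and an AP-1 match from 141 to 135 bases before it. The Il1r1 window had a κB match from 232 to 223 bases before the start, and the downstream Il1rn window and the Il18 window had no match to these motifs. Over the 15 windows of the 10 genes, 2 held a κB match, 2 an AP-1 match, 2 an AGGTCA match, 3 a match to GAGGAA, the core that PU.1 binds (searched on both strands), and 0 a pair of AGGTCA in the same direction 5 bases apart. Among all 32851 promoter windows of the same length these shares were 3.9%, 6.75%, 14%, 23.3% and 0.00913%. The windows were 250 bases long, and a match or its absence there is a description of the letters alone.

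Compared per exon length (RPKM, CPM divided by the exon length in kilobases), the levels of the 10 genes spread over more than 2 orders of magnitude. Casp1, the protease that matures interleukin-1 beta and interleukin-18, was the highest in each library, between 34.9 and 40.9 RPKM. Il1rn (2.63 to 9.90 RPKM) and Nlrp3, the sensor of the inflammasome (2.24 to 6.74 RPKM), came next, and their ranges over the 6 libraries overlapped. Il18 (0.464 to 1.72 RPKM), Il1b (0.598 to 1.69 RPKM) and Il1rap (0.888 to 1.31 RPKM) were not separable from each other, and all 6 libraries of each lay below the lowest Nlrp3 value. Il1r1 ranged from 0.150 to 0.644 RPKM and Il1a from 0.142 to 0.394 RPKM. Il1rl1, the receptor chain for interleukin-33, was between 0.0990 and 0.201 RPKM, and Il1r2 was at most 0.147 RPKM.

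**Figure D1:**
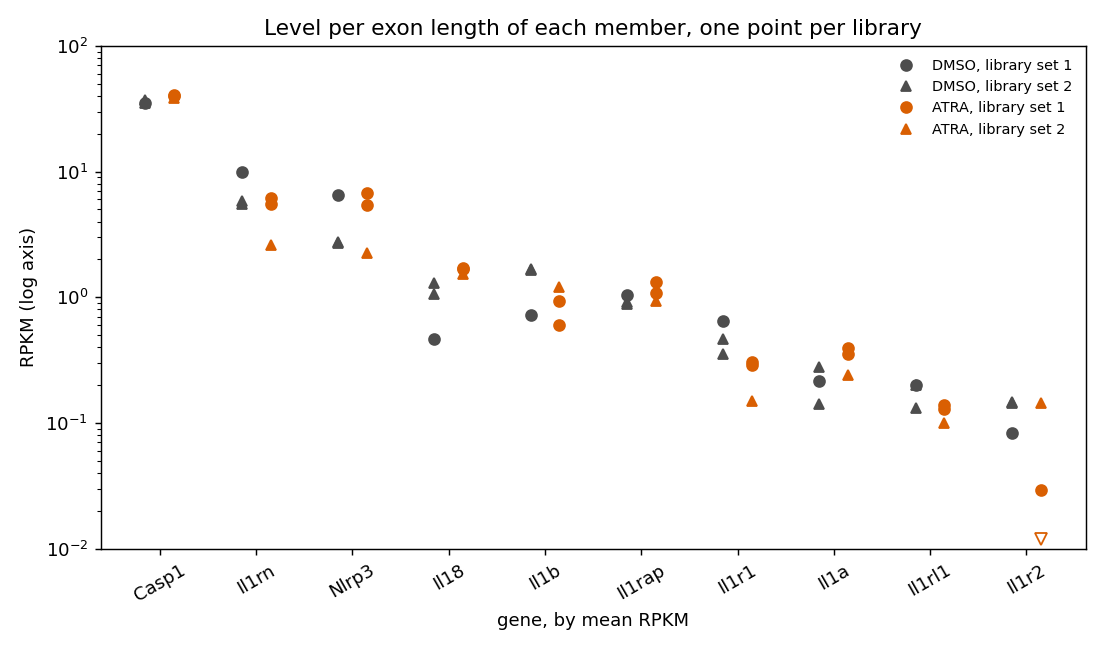
Level of each member in RPKM on a log axis, with 1 point per library, control (DMSO) at the left and RA-treated (ATRA) at the right of each gene. The open triangle marks the RA-treated library with 0 counts of Il1r2. Casp1 lies above all other members in each library, and Il1r2 reaches at most 0.147 RPKM.

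Of the 10 genes, 8 passed the expression filter of edgeR and were tested, while Il1a and Il1r2 had too few counts. In the quasi-likelihood test of edgeR over all 13842 genes tested, 0 of the 8 members passed the threshold (1.5-fold or more, and an adjusted p under 0.05), against 0.0433% of all genes tested, 0.0361% higher and 0.00722% lower after RA. Their adjusted p lay between 0.795 and 0.898. Il1r1 was the 1 member with an unadjusted p under 0.05, against 5.25% of all genes, and DESeq2 gave 0 members at an adjusted p under 0.05 and 1, Il1r1 again, at an unadjusted p under 0.05. The log2 fold change was above 0 for 4 of the 8 and below 0 for 4, with a median of -0.19 against -0.018 over all genes tested. For a single gene, an exact permutation test of 3 libraries against 3 cannot go below p = 0.10, two-sided.

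**Figure D2:**
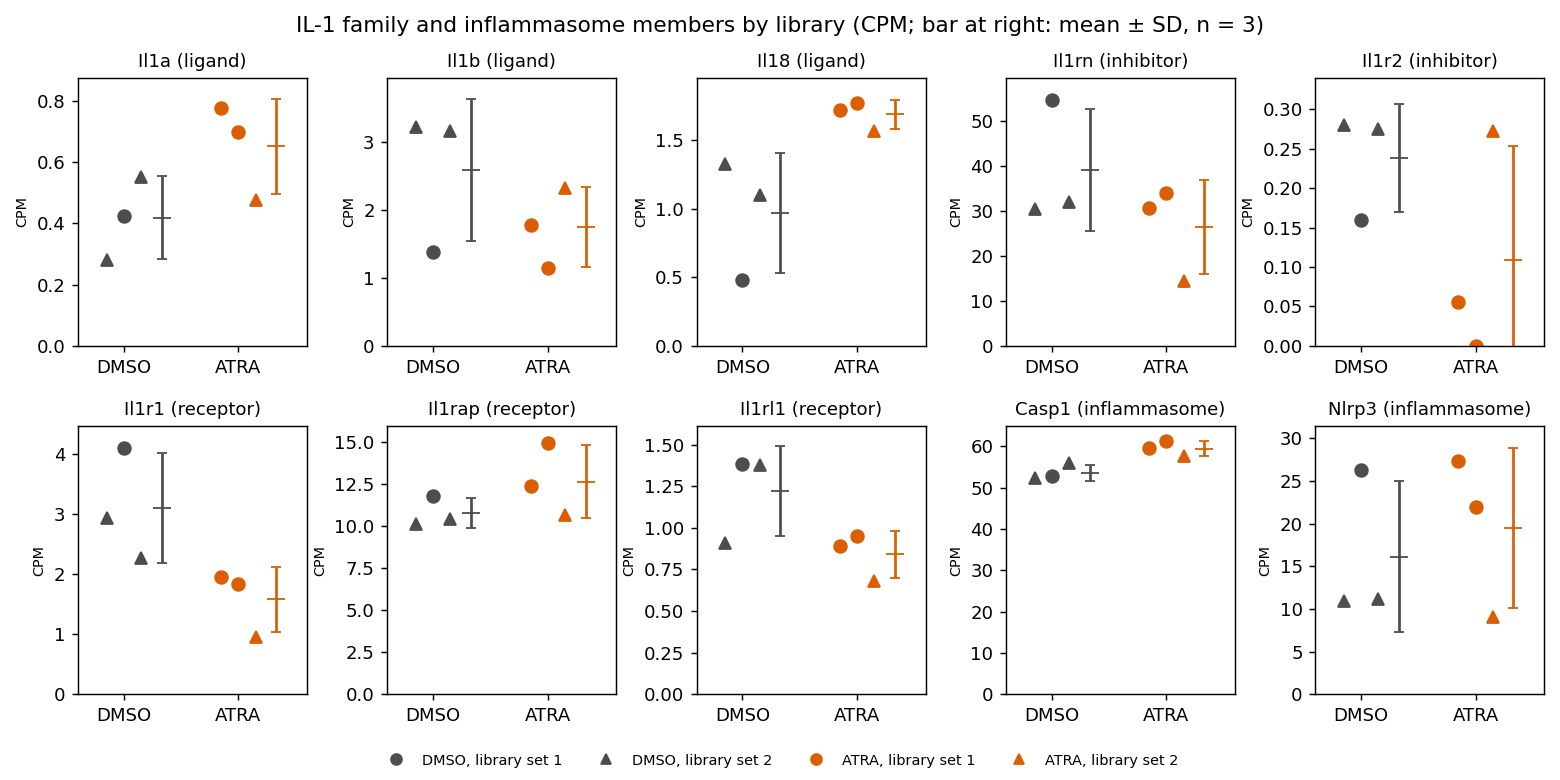
CPM of the 10 genes in each library on axes from 0, with circles for library set 1, triangles for library set 2, and the mean with its SD over 3 libraries at the right of each group (the bar of Il1r2 after RA is clipped at 0). RA-treated and control libraries do not overlap for Il1r1, Il18 and Casp1. The library sets do not overlap for Nlrp3, Il1b and Il1rap, nor for Il1r2 at its few counts.

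Among the receptor chains, Il1r1 (chromosome 1 of GRCm38 from 40225080 to 40317257), which encodes the signaling receptor for both interleukin-1 ligands, had 2.94, 4.10 and 2.27 CPM in controls 1 to 3 and 1.95, 1.84 and 0.955 CPM in RA-treated BMSCs 1 to 3. No RA-treated library reached the lowest control, although the highest RA-treated and the lowest control library were close. The mean went from 3.10 ± 0.923 CPM (SD, n = 3) to 1.58 ± 0.544 CPM (SD, n = 3), a log2 fold change of -0.97 (standard error, SE, 0.37, 95% interval from -1.85 to -0.089 before adjustment) with an adjusted p of 0.795 from edgeR. Within library set 1 the difference in log2 CPM was -1.07, and within set 2 it was -1.33. With the set as a covariate it was -1.24 (edgeR adjusted p = 0.0618). These values rest on 14 to 77 counts per library. The stromal marker sum stood lower after RA in both sets too, a mean of 2804 against 4385 CPM in set 1 and 1669 against a mean of 2405 CPM in set 2, with Col1a1, Col1a2 and Col3a1 making up most of it, whereas the median log2 fold change of the 10 stromal markers tested was 0.20. The part of stromal RNA in the Il1r1 difference was not tested.

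Il1rap (chromosome 16 from 26581704 to 26730117), the accessory chain shared by the receptors for interleukin-1 and interleukin-33, had 10.1, 11.8 and 10.4 CPM in controls 1 to 3 and 12.3, 14.9 and 10.6 CPM after RA. The groups overlapped, and the log2 fold change was 0.23 (SE 0.18 and adjusted p = 0.803 with edgeR), with differences of 0.20 and 0.056 in log2 CPM within sets 1 and 2. Every library of set 1 lay above every library of set 2. Per exon length, Il1rap exceeded Il1r1 in every library. The ratio of their RPKM was 1.92, 1.61 and 2.56 in controls 1 to 3 and 3.55, 4.54 and 6.24 after RA, without overlap. The ratio of Il1rn to Il1r1 did not overlap either, at 11.9, 15.4 and 16.3 in controls and 18.2, 21.2 and 17.5 after RA. These and the other ratios between genes were formed after the values had been seen and were given no test.

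Il1rl1, which encodes both a membrane receptor for interleukin-33 and a soluble decoy that counts per gene do not separate, had 0.910, 1.38 and 1.38 CPM in controls and 0.889, 0.951 and 0.682 CPM after RA. The groups overlapped because control 1 lay below RA-treated 2, and the log2 fold change was -0.54 (SE 0.31 and adjusted p = 0.795 with edgeR). Within the sets the differences in log2 CPM were -0.53 and -0.63. Of the 8 markers of mast cells, a cell type rich in Il1rl1, 5 were listed and 3 of these, Kit, Ms4a2 and Mcpt4, had at most 3 counts in any library. Of the remaining pair, Hdc had at most 4 counts, while Gata2, at 0.634 to 2.23 CPM, was as abundant as Il1rl1. The part of mast cell RNA in the Il1rl1 values was not tested.

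The 3 receptor genes Il1r2, Il1r1 and Il1rl1 lie in that order on the plus strand of chromosome 1, from 40074079 to 40465415. Il1r2, the decoy, had 4, 3 and 4 counts in controls 1 to 3 and 1, 0 and 4 counts in RA-treated BMSCs 1 to 3. The library with 0 counts allows a level of up to 0.195 CPM (3 counts before the TMM factor, counting error only), so that no difference was detectable at this depth.

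The second inhibitor, the receptor antagonist gene Il1rn (chromosome 2 from 24336853 to 24351494), was far more abundant, with 30.5, 54.8 and 32.1 CPM in controls 1 to 3 and 30.8, 34.0 and 14.5 CPM after RA. Pooled, the groups overlapped, since control 1 and control 3 stood beside RA-treated 1 and 2. The mean went from 39.1 ± 13.6 CPM (SD, n = 3) to 26.4 ± 10.4 CPM (SD, n = 3), with a log2 fold change of -0.57 (SE 0.37 and adjusted p = 0.795 with edgeR). Within each library set, however, every RA-treated library lay below every control, at 0.592 of the control level in set 1 and 0.466 in set 2. A fit that took the library set as covariate gave a log2 fold change of -0.92 (SE 0.12 and adjusted p = 0.0146 with edgeR), and Il1rn was the 1 member of 8 called in that fit, against 1.54% of all genes tested, 0.744% higher and 0.795% lower after RA. The sets were drawn from the expression of these same libraries, so that this p is not independent of how the covariate was chosen. The stromal marker sum, mostly Col1a1, Col1a2 and Col3a1, differed by -0.64 and -0.53 (log2 of the ratio of sums) within sets 1 and 2 and, like Il1rn, was highest in control 2 and lowest in RA-treated 3, whereas the median log2 fold change of the tested stromal markers was 0.20 with Pdgfra, Cxcl12, Lepr and Dcn higher and Ly6a, like the collagens, lower after RA in both sets. The macrophage marker sum differed by -0.065 and -0.020, with a median log2 fold change of -0.16 over its 14 genes, and the markers of neutrophils, another known source of the antagonist, summed to at most 4.63 CPM, with Ngp, Ltf and Retnlg at 3 counts or fewer in each library. The part of cell composition in the Il1rn difference was not tested.

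**Figure D3:**
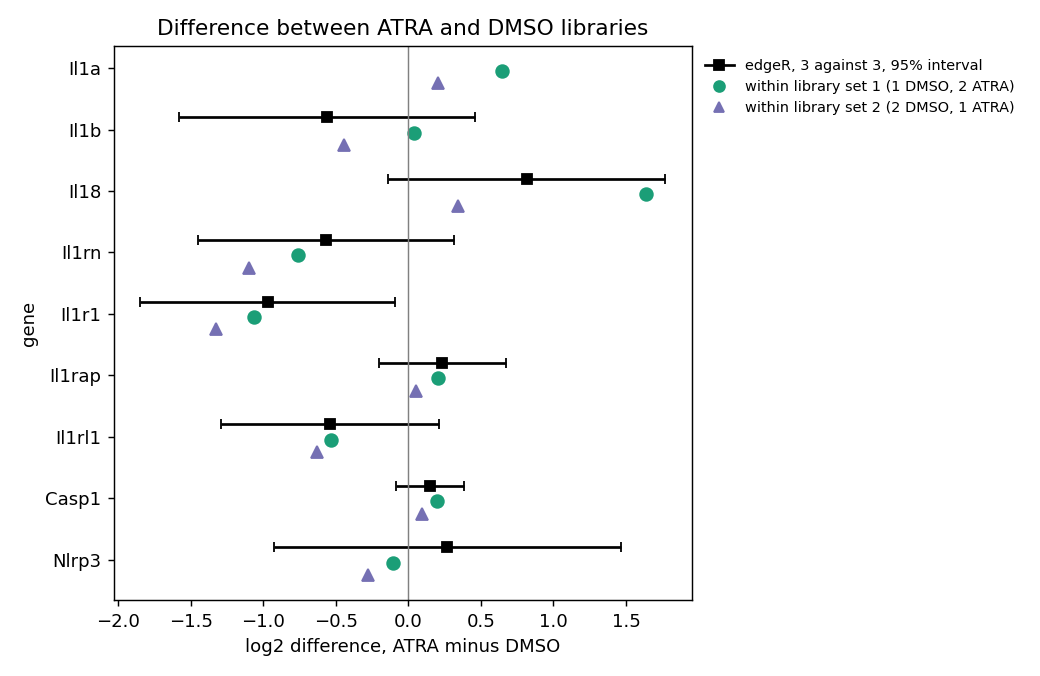
Difference between RA-treated and control BMSCs on the log2 scale: edgeR log2 fold change over 6 libraries with its unadjusted 95% interval (squares), and the difference of mean log2 CPM within library set 1 (circles) and set 2 (triangles). Il1rn, Il1r1 and Il1rl1 lie below 0 in each of the 3 values, Il18, Il1rap and Casp1 above 0, and Il1b and Nlrp3 change side. Il1a was not tested and has no square, and Il1r2 is left out for its low counts.

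Of the ligands, Il1b (chromosome 2 from 129364570 to 129371139) had 3.22, 1.38 and 3.16 CPM in controls and 1.78, 1.14 and 2.32 CPM after RA. The groups overlapped, as control 2 lay below RA-treated 1 and 3. The log2 fold change was -0.56 (SE 0.43, 95% interval from -1.58 to 0.46, edgeR adjusted p = 0.803), on 18 to 46 counts per library. Within set 1 the difference in log2 CPM was 0.042 and within set 2 it was -0.44. Il1rn exceeded Il1b per exon length in every library, with RPKM ratios of 3.27, 13.6 and 3.50 in controls and 5.96, 10.3 and 2.16 after RA. The ratios overlapped between the groups but not between the library sets.

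Il1a (chromosome 2 from 129299610 to 129309972, beside Il1b), the ligand that acts without caspase-1, had 4, 8 and 8 counts in controls 1 to 3 and 14, 11 and 7 counts after RA, at most 0.778 CPM. Exact Poisson 95% intervals ran from 0.0763 to 0.717 CPM in control 1, the lowest library, and from 0.425 to 1.31 CPM in RA-treated 1, the highest. The groups overlapped, and the gene was not tested.

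Il18 (chromosome 9 from 50554827 to 50581840), an inducer of IFNγ in lymphocytes, had 1.33, 0.479 and 1.10 CPM in controls 1 to 3 and 1.72, 1.78 and 1.57 CPM after RA. Each RA-treated library exceeded the highest control. The mean went from 0.970 ± 0.441 CPM (SD, n = 3) to 1.69 ± 0.107 CPM (SD, n = 3), which is 0.82 as a log2 fold change (SE 0.40 and adjusted p = 0.795 with edgeR), on 9 to 31 counts per library. Within set 1, whose control held the 9 counts, the difference in log2 CPM was 1.63, and within set 2 it was 0.34, while the covariate fit gave 1.03 (edgeR adjusted p = 0.296). Without control 2 the log2 fold change was 0.49 (edgeR adjusted p = 0.539).

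Among the inflammasome genes, Casp1 (chromosome 9 from 5298517 to 5307265) was the steadiest member, with 52.2, 52.7 and 55.8 CPM in controls and 59.5, 61.2 and 57.6 CPM after RA. The groups did not overlap, but the log2 fold change was small, 0.15 (SE 0.099, 95% interval from -0.087 to 0.39, edgeR adjusted p = 0.795), so that a change of 1.5-fold lay outside the interval. Nlrp3 (chromosome 11 from 59541568 to 59566956) ranged from 9.07 to 27.3 CPM and followed the library set rather than the treatment. In set 1 it stood at 26.3 CPM in the control and at 27.3 and 21.9 CPM after RA, and in set 2 at 10.9 and 11.1 CPM in controls and 9.07 CPM after RA. Its log2 fold change was 0.27 (SE 0.50 and adjusted p = 0.898 with edgeR) over all libraries and, once the set was a covariate, -0.18 (edgeR adjusted p = 0.543), so its direction was not settled. Accordingly, the RPKM ratio of Casp1 to Nlrp3 was between 5.43 and 7.57 in set 1 and between 13.0 and 17.2 in set 2.

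Counting members by separation, the groups did not overlap for 3 of the 8 tested genes, Il18 and Casp1 above and Il1r1 below, against 12.6% of all genes (5.71% above and 6.87% below). Within both library sets at once, the RA-treated libraries stood apart from the controls in the same direction for 6 of 8, against 42% of all genes. Il18, Il1rap and Casp1 were the 3 above (18.5% of all genes) and Il1rn, Il1r1 and Il1rl1 the 3 below (23.5%). A reduction to 1.5-fold lower or beyond was seen in each of the sets for Il1rn and Il1r1, against 4.33% of all genes in 1 direction or the other (2.28% lower and 2.06% higher). With 8 genes, these counts describe the members and were given no test.

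The other genes of the pathway were read from 4 lists of 77 genes in all, of which 72 were listed and 59 tested. In edgeR 0 of the 59 were differentially expressed, 3 had an unadjusted p under 0.05 (Il33, Mmp13 and Zc3h12a, against 5.25% of all genes), and the median log2 fold change was -0.041 against -0.018 over all genes. DESeq2 called 2 of them, Il33 and Mmp13, against 0.875% of the genes that edgeR tested. Under the library-set covariate 5 of the 59 were called, against 1.54% of all genes, with Il33, P2rx7 and Mmp13 higher and Il6 and Ccl7 lower.

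Il33, a further ligand of the family and the partner of Il1rl1, had 5, 10 and 7 counts in controls 1 to 3 and 40, 43 and 24 counts after RA. The groups stood far apart, with 0.350, 0.532 and 0.481 CPM in controls and 2.22, 2.73 and 1.64 CPM after RA. The log2 fold change was 2.24 (SE 0.34 and adjusted p = 0.193 with edgeR), 2.27 with DESeq2 (adjusted p = 0.00585) and 2.08 under the library-set covariate (edgeR adjusted p = 0.0253), so that the call depended on the test. Within sets 1 and 2 the differences in log2 CPM were 1.98 and 1.72. Per exon length, the ratio of Il33 to its receptor gene Il1rl1 was between 0.836 and 0.919 in controls and between 5.73 and 6.85 after RA. Of the other ligands and receptors on the list, the interleukin-18 binding protein gene Il18bp (log2 fold change 0.28, edgeR adjusted p = 0.867) and Il1rl2, the receptor for interleukin-36 (0.093, adjusted p = 0.942), were the most abundant of the 3 tested, and 9 of the 13 genes were listed.

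**Figure D4:**
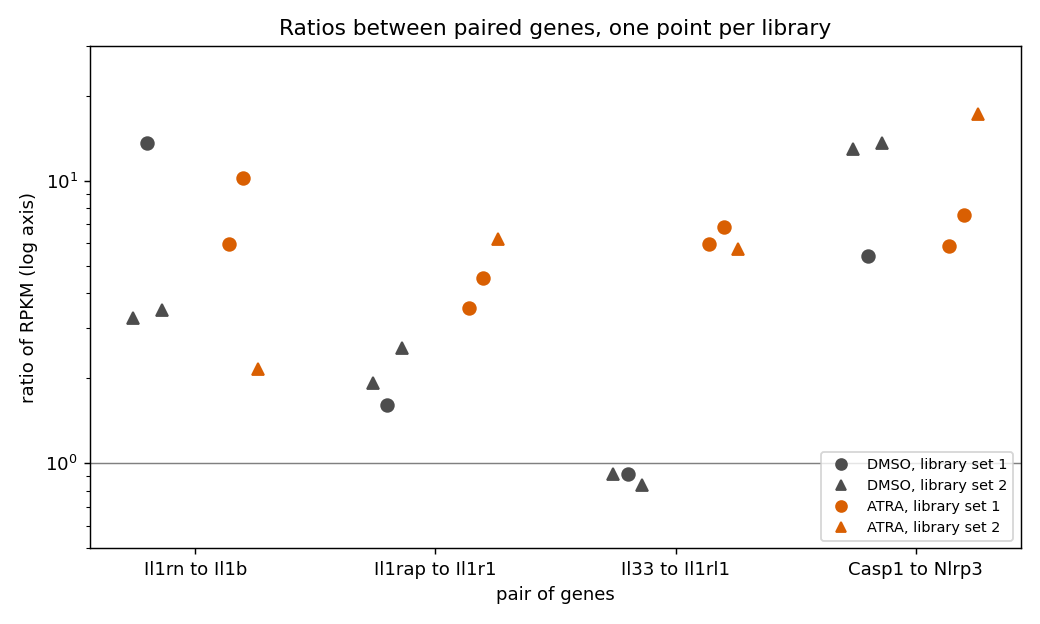
Ratio of RPKM between pairs of genes on a log axis, with 1 point per library, grey for control and orange for RA-treated, circles for library set 1 and triangles for set 2. Of the 4 pairs drawn, the ratios of Il33 to Il1rl1 and of Il1rap to Il1r1 do not overlap between control and RA-treated libraries. Those of Casp1 to Nlrp3 and of Il1rn to Il1b part the library sets.

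The 17 genes that relay the signal from the receptor to NF-κB and the kinases were all tested, and 0 were called by edgeR. Their log2 fold changes lay between -0.41 and 0.29, with 6 above 0 and 11 below. Within both sets 2 of the 17 stood above the controls and 4 below, against 18.5% and 23.5% of all genes. The most abundant were Irak3, an IRAK family member known to restrain the relay (log2 fold change 0.29, edgeR adjusted p = 0.795, 227 to 344 CPM), and Tab2, an adaptor of the kinase TAK1 (0.034). Of the 22 other inflammasome genes, 21 were listed and 17 tested, with log2 fold changes between -0.26 and 0.39 (median 0.057) and 0 called. Within sets 1 and 2 their median differences in log2 CPM were 0.27 and 0.080, and 8 of the 17 stood above the controls in both sets and 0 below, against 18.5% and 23.5% of all genes. In that list the most abundant were Txnip, a binding partner of NLRP3 (-0.12, edgeR adjusted p = 0.913), and Ninj1, which acts in membrane rupture (-0.045, adjusted p = 0.974), and both changed sign under the library-set covariate (0.10 and 0.15). P2rx7, the ATP-gated channel that triggers NLRP3, had a log2 fold change of 0.39 (edgeR adjusted p = 0.803) over all libraries and of 0.65 (edgeR adjusted p = 0.0258) under the covariate. Reads of the near-identical Naip and Nlrp1 genes may have been split between copies.

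The 25 genes known to be induced by interleukin-1 were listed and 22 tested, with a median log2 fold change of -0.20, 7 above 0, 15 below and 0 called. The median difference in log2 CPM was -0.62 within set 1 and -0.067 within set 2, against -0.0022 and -0.018 over all genes tested. In set 1 it rests on control 2 as the only control. In both sets 1 of the 22 stood above and 9 below the controls, against 18.5% and 23.5% of all genes. Mmp13, a collagenase, had 90.4, 124.7 and 116.6 CPM in controls and 349.2, 403.1 and 177.1 CPM after RA, without overlap (log2 fold change 1.49, SE 0.31 and adjusted p = 0.353 with edgeR), and differed by 1.59 in log2 CPM within set 1 and 0.79 within set 2. Zc3h12a, an RNase that degrades cytokine messages, had 151.3, 166.5 and 129.0 CPM in controls and 101.1, 95.7 and 120.8 CPM after RA (log2 fold change -0.49, SE 0.15 and adjusted p = 0.746 with edgeR), with differences of -0.76 and -0.21 within sets 1 and 2. Nfkbiz, a nuclear cofactor of NF-κB and the most abundant of the list, had a log2 fold change of -0.31 (edgeR adjusted p = 0.803).

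The cytokine gene Il6 differed mainly by library set. It had 10, 219 and 9 counts in controls 1 to 3 and 43, 43 and 2 counts after RA, with a pooled log2 fold change of -1.31 (SE 1.30 and adjusted p = 0.819 with edgeR) and one of -2.19 (edgeR adjusted p = 0.00636) under the covariate. The chemokine gene Ccl7 showed the same arrangement, with 12.7, 136.1 and 12.9 CPM in controls and 74.2, 54.0 and 3.68 CPM after RA, a pooled log2 fold change of -0.30 (edgeR adjusted p = 0.957) and one of -1.33 (edgeR adjusted p = 0.0181) with the covariate. P2rx7, Il6 and Ccl7 were named after their values had been seen.

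**Figure D5:**
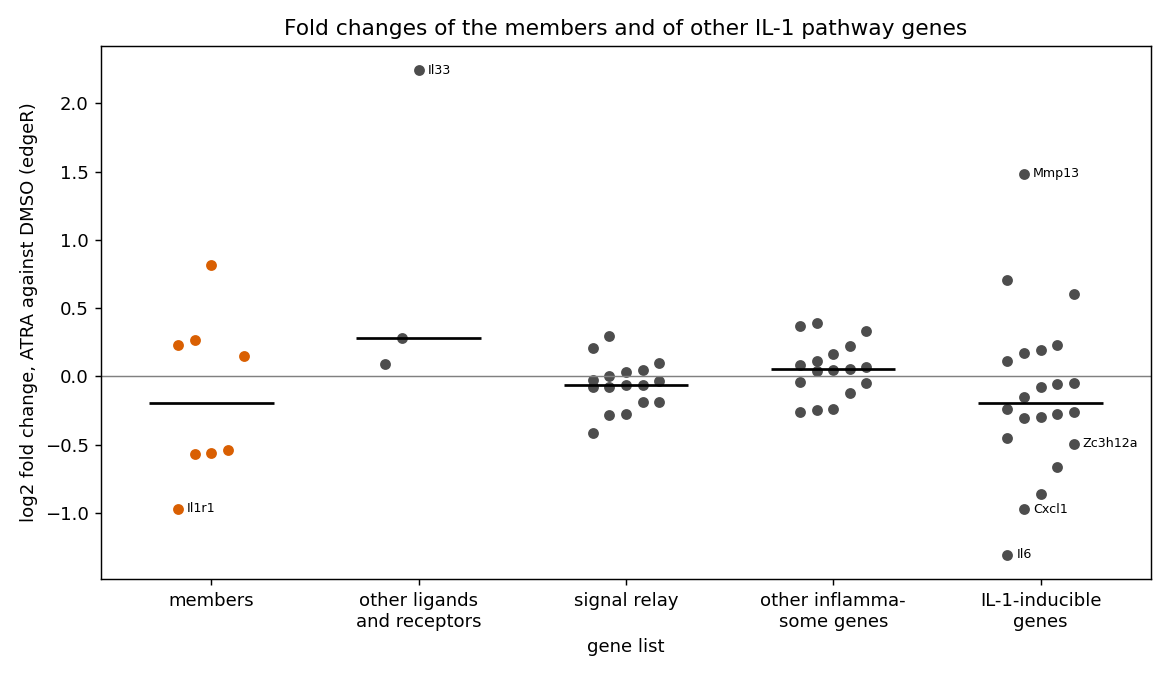
edgeR log2 fold change of RA-treated against control BMSCs for the 8 tested members (orange) and for the tested genes of the 4 other lists (grey), with the median of each list as a bar. The medians lie between -0.20 and 0.28, and Il33 and Mmp13 stand highest.

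Likeness to a member was measured as the root-mean-square difference of log2 CPM, each gene centred over its 6 libraries. The nearest of all tested genes to Il1b were Oas1b (0.077), Pira2 (0.082) and Naprt (0.086), and the nearest to Il1r1 were Hoxc12 (0.11), Grasp (0.13) and Tyro3 (0.14). With 6 libraries and 13842 genes some near patterns are found for any gene, and these are given as a description.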

How the data were processed

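For every library the authors deposited a table of counts per gene, whole numbers that had not been normalized. Bowtie2 2.2.3 and the build mm10 are named in the submitters' processing notes; the counting program, annotation and strand setting are not given in the sources used here. Gene coordinates and exon lengths came from GENCODE release M21 (GRCm38), which held 25706 of the 25722 identifiers, and 24 names turned into dates were replaced. Opposite-strand genes overlap exons of Il1a, Il1b and Il1rap, with at most 7 counts in all.

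Groups and replicate numbers came from the sample titles. Counts were analysed in R 4.3.3 with edgeR 4.0.16 (filterByExpr, TMM, quasi-likelihood F test, treatment as the only term, Benjamini-Hochberg over all 13842 genes tested). The size of a log2 fold change divided by the square root of F gave its standard error, and log2 CPM used a prior count of 2. The procedure was tested on simulated data.

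The members and lists were chosen with earlier results of these data known. Named were all members, list genes with an unadjusted p under 0.05, the 2 most abundant tested genes per list, the 3 genes nearest to Il1b and to Il1r1, and Cyp26b1. The alternatives were DESeq2 1.42.0, a replicate block, each library left out in turn, and other scalings, filters and prior counts. Further ones were an unadjusted p under 0.05 with the 1.5-fold limit, and the library set as a covariate. Mast cell, T cell, B cell, endothelial and erythroid markers summed to at most 2.45, 3.23, 5.53, 17.2 and 0.372 CPM in a library.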

Additional observations from a re-analysis of the deposited data

How the results depend on the processing

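The number of genes called over the whole table moved from 6 to 122 with DESeq2, 20 without a filter on low counts, 213 with the library set as a covariate and 491 with an unadjusted p, and ran from 0 to 6 with 1 library left out (0 without control 1, 1 without control 3, RA-treated 1 or RA-treated 2, 2 without control 2, 6 without RA-treated 3). Members called went from 0 to 1 with the covariate (Il1rn) and to 1 with the unadjusted p and fold limit (Il1r1). They were 0 in each fit without 1 library. Other pathway genes called went from 0 to 5 with the covariate, 2 with DESeq2 and 2 with the unadjusted p and fold limit. They were 0 in each fit without 1 library. The causes were not tested.

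Of the 103 alternative values of the 8 members' log2 fold changes, 100 kept direction and side of the threshold. Nlrp3 reversed with the covariate (-0.18) and without RA-treated 1, with a range from -0.037 to 0.83 when 1 library was left out. The ranges were -0.79 to -0.23 for Il1rn, -1.15 to -0.70 for Il1r1, -0.86 to -0.33 for Il1b, 0.49 to 1.11 for Il18 and 0.098 to 0.34 for Il1rap. With the covariate Il1b stood at -0.21, Il1rap at 0.14, Nfkbiz at -0.14 and Il18bp at 0.60. Among other named genes, Il1rl2 (-0.085), Txnip (0.10) and Ninj1 (0.15) reversed with the covariate. With 1 library left out, Il18bp ran from -0.0026 to 0.61, Il1rl2 from -0.093 to 0.31, Tab2 from -0.054 to 0.13, Irak3 from 0.14 to 0.41, Nfkbiz from -0.54 to -0.15, Txnip from -0.39 to 0.028 and Ninj1 from -0.39 to 0.16. Cyp26b1 lost its call without control 1 (edgeR adjusted p = 0.0548).

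The deviations of same-numbered libraries correlated across genes at -0.51, 0.343 and 0.572. The libraries numbered 1 lie in different library sets, and those numbered 2 and those numbered 3 share a set. These values therefore cannot show whether the numbers pair the libraries. With the replicate block 4 genes and 0 members were called, so that it changed no member's call. Counts under 50 limit Il1a, Il1b, Il18, Il1rl1, Il1r2 and Il33 in each library and Il1r1 in 5 of 6.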
